A study of Mus musculus with 43 samples.

Results

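Lungs of mice given house dust mite (HDM) for 15 weeks together with an anti-IL-33 antibody were compared with lungs of mice given saline, to describe which transcripts were still away from the saline level. The 22 libraries were chosen by the titles of the samples, 15 from anti-IL-33 and 7 from saline, out of 43 in the series. Both groups carried the same genotype, Il33hu/hu, in which the mouse Il33 locus is humanised, on a mixed strain background of C57BL/6NTac (75%) and 129S6SvEvTac (25%). The anti-IL-33 group received HDM, an airway allergen, and the antibody, with a 15-week time point. The saline group received saline without HDM and carries no time label, so that exposure, age and time in the study cannot be told apart. An isotype control antibody with 15 weeks of HDM (4 libraries) and 15 weeks of HDM without antibody (7 libraries), both of the same genotype and background, are set beside them for context. No library of saline with the antibody was analysed here, the sources used here give no doses or ages, and the labels do not say whether each library is a separate animal. P-values therefore measure the spread between libraries, whatever its source.

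IL-33 is an alarmin of the IL-1 family that barrier cells release when they are damaged. Its receptor ST2 (Il1rl1) with the accessory chain Il1rap signals through Myd88 in group 2 innate lymphoid cells, mast cells, basophils, eosinophils, regulatory T cells and some macrophages, and drives them to make type 2 cytokines. Repeated HDM exposure of the mouse airway is known for eosinophils and T helper 2 cells, goblet cell mucus, alternatively activated macrophages, antibody-secreting cells, neutrophil recruitment and matrix remodelling.

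Total counts per library ran from 5126491 to 12599467 under anti-IL-33 and from 7090950 to 12414078 in saline. The lung identity of the tissue showed in every library, with the type II cell collectin Sftpa1 at 3348 to 6931 CPM (median 4737) under anti-IL-33 against 2247 to 3733 CPM (median 3012) in saline, where CPM is counts per mega-count of library total after TMM scaling. Sample numbers fall in 2 separate ranges whose meaning the sources used here do not state; anti-IL-33 had 8 libraries in range 1 and 7 in range 2, saline 2 and 5, and the range was a covariate throughout. Anti-IL-33 replicates 7 and 12 held RNA of other tissues: Myh8, a skeletal muscle myosin, stood at 132.8 and 133.1 CPM in them, against at most 0.278 CPM in the other 13 anti-IL-33 libraries and 0 to 0.0842 CPM (median 0) in saline. The basal and squamous keratin Krt5 stood at 140.0 and 81.3 CPM in these libraries, against 0.095 to 2.5 CPM in the other 13. Summed over the 7 tested skeletal muscle markers, the level ran from 3.76 to 562 CPM under anti-IL-33 and from 6.17 to 11.4 CPM in saline. Saline replicates 1, 3 and 5 stood apart in the other direction for Clca1, a secreted goblet cell protein, with 332, 754 and 425 CPM against 0.673 to 24.1 CPM in the other 4 saline libraries. These are whole-lung libraries, in which fewer cells of a type and less RNA per cell cannot be told apart.

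Of 15598 genes tested, 6015 (38.6%) differed between anti-IL-33 and saline at an adjusted p under 0.05 from edgeR's quasi-likelihood test with Benjamini-Hochberg adjustment. Under anti-IL-33, 3125 genes (20%) were higher and 2890 (18.5%) lower, and the median log2 fold change over all genes was 0.000811. Far fewer genes changed by 2-fold or more, 1288 in all (8.26%), 966 higher (6.19%) and 322 lower (2.06%), so the large changes were mostly rises. In 792 genes (5.08%) all 15 anti-IL-33 libraries lay above all 7 saline libraries, and in 746 (4.78%) all 15 lay below. For 8464 genes (54.4%) the 95% interval of the difference lay within a fold of 1.5 in either direction, and for 12292 (79%) within a fold of 2. Genes with a log2 fold change nearest 0 were given no interval and are left out of these counts and shares. Without anti-IL-33 replicates 7 and 12, 2794 genes were higher and 2616 lower at any size of change. The 2-fold counts were not repeated without these libraries, so their part in the large rises was not tested.

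**Figure D1:**
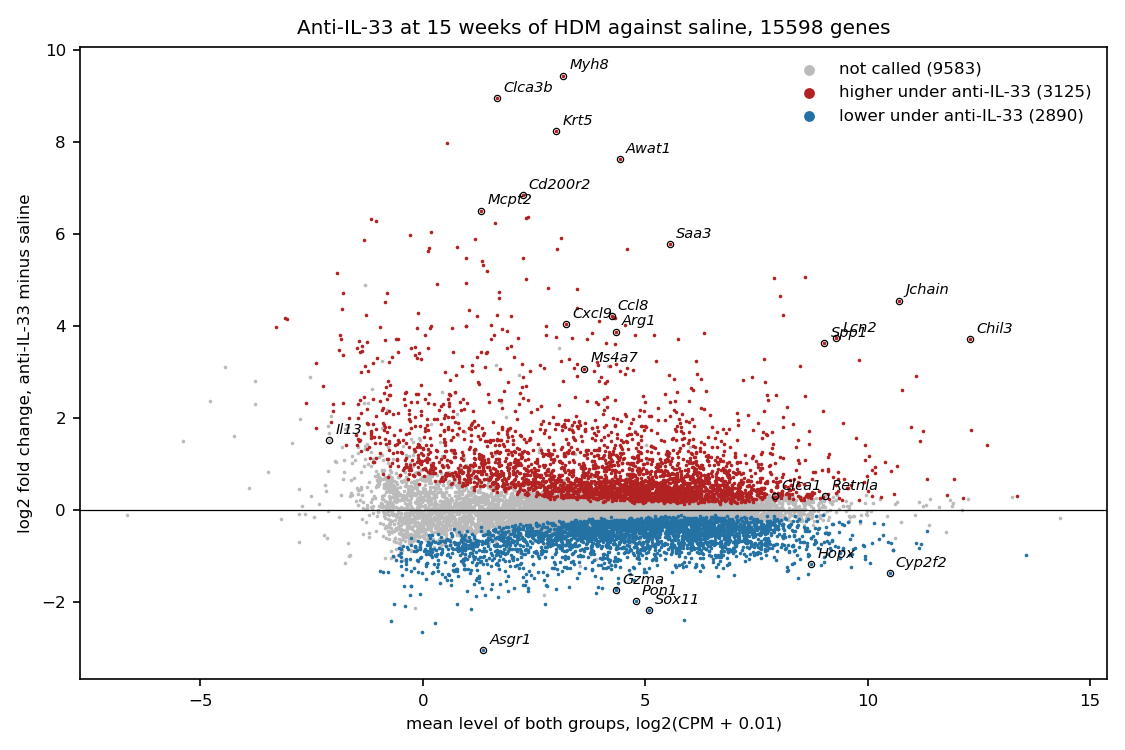
Each point is 1 of 15598 tested genes, with the mean level of both groups on the x axis as log2(CPM + 0.01) and the log2 fold change, anti-IL-33 minus saline, on the y axis; 3125 genes in red were higher under anti-IL-33, 2890 in blue lower, and 9583 in grey not called. Named genes are circled, and the rises reach further from 0 than the falls do.

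The cytokines that give type 2 disease its name were not called. Il13, the cytokine that drives mucus production, had 0 to 1.17 CPM (median 0.209) under anti-IL-33 against 0 to 0.4 CPM (median 0) in saline. Its log2 fold change of 1.52 ± 0.74 (SE) missed the threshold (adjusted p = 0.1, edgeR), with a 95% interval of 0.02 to 3.02, wholly above 0 before adjustment over all genes. Il5, the eosinophil growth factor, had 0 to 0.542 CPM (median 0.095) under anti-IL-33 against 0 to 0.374 CPM (median 0.154) in saline, a log2 fold change of -0.09 ± 0.63 (SE) with an interval of -1.37 to 1.18. Il4, the cytokine of IgE switching, differed by 0.32 ± 0.47 (SE) on the log2 scale with an interval of -0.62 to 1.26. These 3 transcripts rested on few counts in most libraries of both groups, which leaves the intervals wide. Il1rl1, the gene of the IL-33 receptor ST2, was measured more precisely, with 6.57 to 24.8 CPM (median 12.6) under anti-IL-33 against 5.86 to 17.7 CPM (median 11.5) in saline and a log2 fold change of 0.27 ± 0.23 (SE), interval -0.19 to 0.72. The eosinophil chemokine Ccl24 differed by -0.39 ± 0.67 (SE), interval -1.75 to 0.97, with 5 of 15 anti-IL-33 libraries below all saline libraries and 1 above.

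Il33 itself was higher, though the sources used here do not say what the counted reads of the humanised locus align to. It had 21.5 to 510.1 CPM (median 247) under anti-IL-33 against 60.1 to 133 CPM (median 70.3) in saline, a log2 fold change of 1.73 ± 0.33 (SE) (adjusted p = 6.5e-05, edgeR). In 13 of 15 anti-IL-33 libraries Il33 was above all saline libraries, while replicate 8 at 21.5 CPM was below all of them. The other alarmin of the list with enough counts, Tslp, which acts on dendritic cells and innate lymphoid cells, fell to 0.833 to 5.05 CPM (median 2.62) against 3.6 to 6.13 CPM (median 4.95) in saline (log2 fold change -0.86 ± 0.21 (SE), adjusted p = 0.0012, edgeR). Crlf2, the TSLP receptor chain, rose by 1.02 ± 0.20 (SE) (adjusted p = 8.1e-05, edgeR) and was above all saline libraries in 14 of 15. Of the 9 tested members of the alarmin list, Il33, Crlf2 and the adaptor Myd88 rose, Tslp fell, and Il1rap, Il1rl1, Il17rb, Il7r and Il18 were not called.

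Several type 2 chemokines and receptors were called, unlike the cytokines. Ccl8, a chemokine that attracts CCR8-bearing type 2 cells in mice, had 19.8 to 61.9 CPM (median 32.9) under anti-IL-33 against 0.269 to 4.8 CPM (median 1.22) in saline (log2 fold change 4.21 ± 0.39 (SE), adjusted p = 1.9e-10, edgeR), with no overlap of the groups. Its receptor gene Ccr8 had 0.836 to 2.3 CPM (median 1.4) against 0 to 0.647 CPM (median 0.267) in saline, again with all 15 libraries above all 7 (log2 fold change 2.01 ± 0.31 (SE), adjusted p = 2.3e-06, edgeR). Ccl11, the eosinophil chemokine eotaxin-1, rose by 1.96 ± 0.39 (SE) (adjusted p = 9e-05, edgeR), with 11 of 15 libraries above all saline. Of the 15 tested members of the type 2 list, 6 rose (Ccl8, Ccr8, Ccl11, Ccl22, Ccr4 and Il13ra1) and 1, the lineage factor Gata3, fell. The median log2 fold change of that list was 0.449, beside 1.18 for isotype and 1.61 for no antibody against saline. These 3 comparisons share the 7 saline libraries, so here and below they are only set side by side.

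Genes of macrophages were high in several lists. Among 14 tested genes of alternative activation, 10 rose and none fell, with a median log2 fold change of 1.51 under anti-IL-33, 2.45 with the isotype and 2.28 without antibody. Arg1, the enzyme arginase 1, had 5.35 to 136 CPM (median 19.3) under anti-IL-33 against 2.1 to 3.33 CPM (median 2.61) in saline (log2 fold change 3.87 ± 0.69 (SE), adjusted p = 2.2e-05, edgeR). The groups did not overlap for Arg1, although its levels in the 15 anti-IL-33 libraries were spread widely. Chil3, a chitinase-like lectin also called Ym1, had 1185 to 21802 CPM (median 7886) against 251 to 1977 CPM (median 377) in saline (log2 fold change 3.71 ± 0.48 (SE), adjusted p = 1e-07, edgeR), though reads of its near-identical copy Chil4 may be split between them. Mmp12, the macrophage elastase, had 15.4 to 437 CPM (median 73.4) against 4.69 to 29.3 CPM (median 9.17) in saline, with 12 of 15 libraries above all saline (log2 fold change 3.23 ± 0.61 (SE), adjusted p = 4.7e-05, edgeR). Slc7a2, a transporter of arginine, rose by 1.88 ± 0.25 (SE) (adjusted p = 1.7e-07, edgeR), and the integrin Itgax, also called CD11c, by 2.49 ± 0.26 (SE) (adjusted p = 1.4e-09, edgeR). Retnla, the secreted protein RELM-alpha, was the exception among the well-known genes of this list. It had 98.4 to 1579 CPM (median 565) under anti-IL-33 against 33 to 1633 CPM (median 138) in saline. Saline replicates 1, 3 and 5 held 775, 1633 and 692 CPM and the other 4 saline libraries 33 to 138 CPM. Its log2 fold change of 0.29 ± 0.56 (SE) was not called, with an interval of -0.85 to 1.42.

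Most tested markers of monocytes and interstitial macrophages, and of alveolar macrophages, rose. Of 13 tested monocyte and interstitial macrophage markers 9 rose, with a median log2 fold change of 1.35, and in all 15 anti-IL-33 libraries the mean level of the list was above that of all saline libraries. Ms4a7, a membrane protein of interstitial macrophages, had 15.2 to 29.7 CPM (median 22) under anti-IL-33 against 1.22 to 4.55 CPM (median 2.4) in saline (log2 fold change 3.07 ± 0.19 (SE), adjusted p = 1.3e-15, edgeR). Cd68, a lysosomal glycoprotein of phagocytes, had 93.1 to 594 CPM (median 226) against 24.5 to 58.3 CPM (median 38.2) in saline (log2 fold change 2.89 ± 0.32 (SE), adjusted p = 4.2e-09, edgeR). For both genes the lowest anti-IL-33 library was above the highest saline library. The monocyte receptors Ccr2 and Cx3cr1 were not called, with log2 fold changes of -0.27 and -0.04. Among 10 alveolar macrophage markers 6 rose, with a median of 1.78, and Atp6v0d2, a proton pump subunit, led with 3.28 ± 0.33 (SE) (adjusted p = 7.2e-10, edgeR). The lipid carrier Fabp5 rose by 2.50 ± 0.25 (SE) (adjusted p = 8.1e-10, edgeR) and Pparg, the nuclear receptor of alveolar macrophage identity, by 1.63 ± 0.19 (SE) (adjusted p = 2e-08, edgeR). The complement genes C1qa, C1qb and C1qc, made by macrophages, rose by 1.97, 2.07 and 1.96 on the log2 scale, each without overlap of the groups. Adgre1, which encodes the F4/80 antigen, had 53.7 to 110.1 CPM (median 73.5) under anti-IL-33 against 12.9 to 46.3 CPM (median 29.9) in saline (log2 fold change 1.35 ± 0.15 (SE), adjusted p = 7.9e-09, edgeR).

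**Figure D2:**
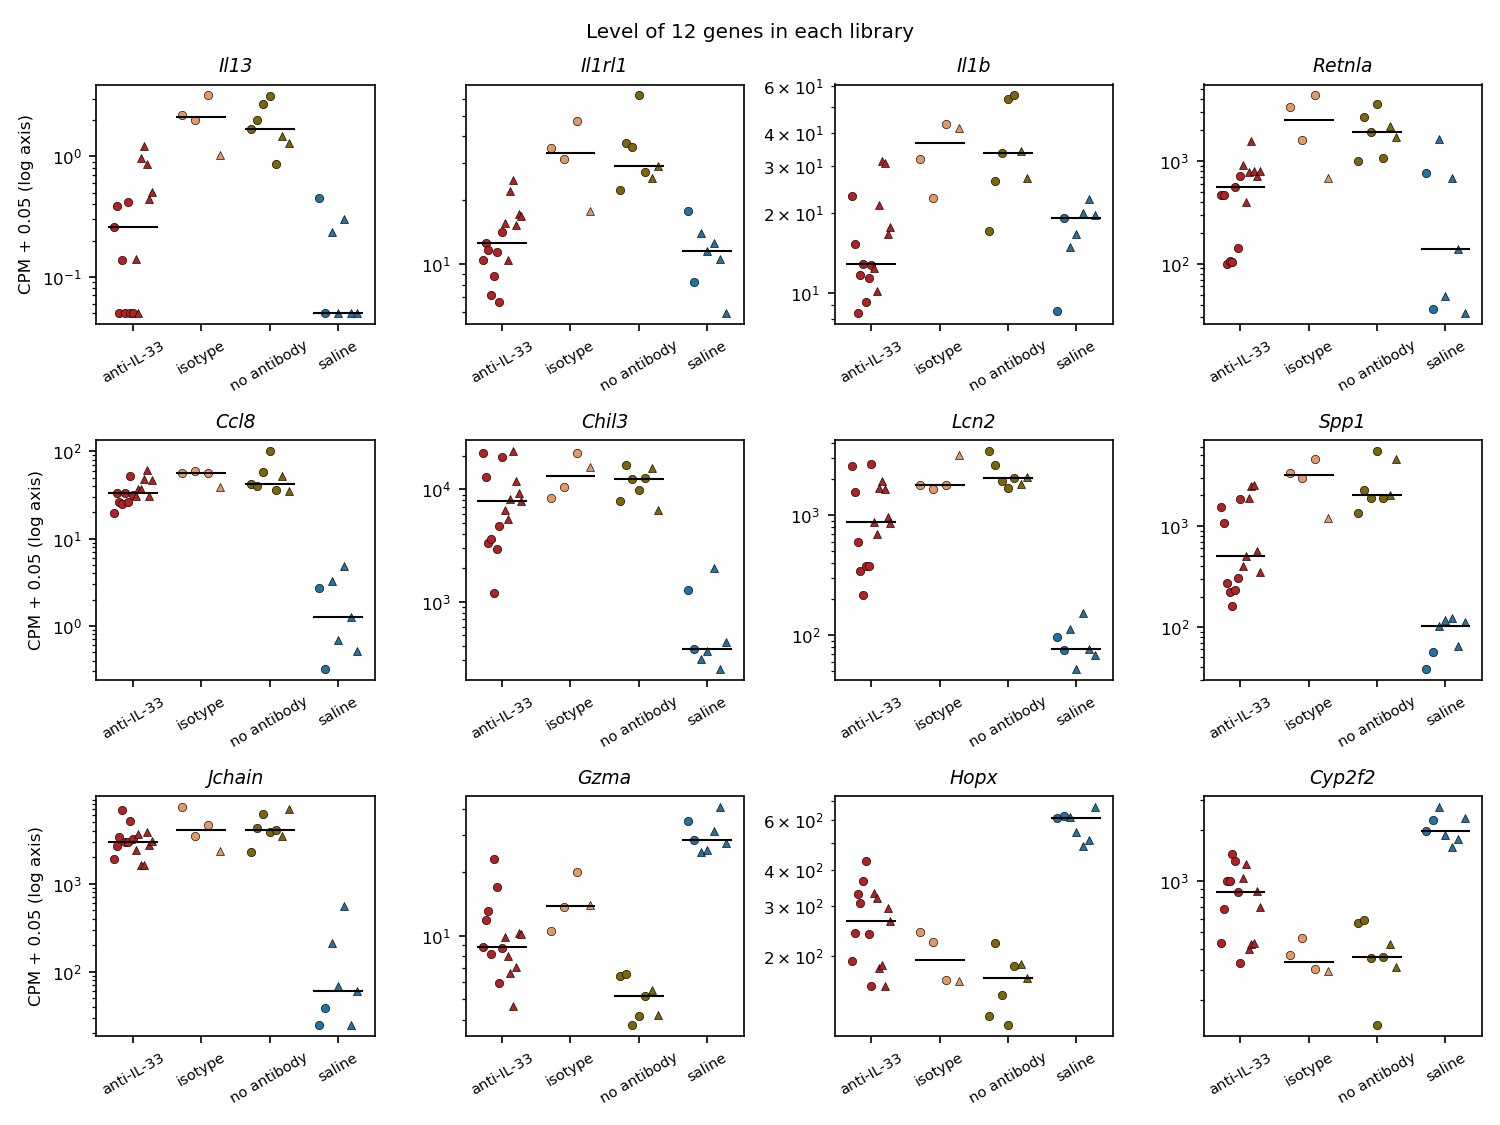
Each panel plots 1 gene, with CPM + 0.05 on a log axis and the 4 groups on the x axis; circles are libraries of number range 1, triangles of range 2, and bars medians. Ccl8, Chil3 in 14 of 15 libraries, Lcn2, Spp1 and Jchain were above all saline libraries under anti-IL-33, Gzma, Hopx and Cyp2f2 below them, while Il13, Il1rl1, Il1b and Retnla overlapped saline.

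Mediators that attract or sustain neutrophils were high as a group, with 10 of 11 tested genes higher and none lower. The median log2 fold change was 1.84 under anti-IL-33, against 3.06 for isotype and 3.61 for no antibody. Lcn2, the iron-binding protein lipocalin 2, had 215 to 2687 CPM (median 881) under anti-IL-33 against 52.2 to 152 CPM (median 77.4) in saline (log2 fold change 3.73 ± 0.41 (SE), adjusted p = 3.8e-09, edgeR), with no overlap. The neutrophil chemokines Cxcl1 and Cxcl5 rose by 2.53 ± 0.43 (SE) and 3.17 ± 0.63 (SE), above all saline libraries in 12 and 9 of 15 (adjusted p = 9e-06 and 9.5e-05, edgeR). Csf2, the growth factor GM-CSF, rose by 1.27 ± 0.19 (SE) (adjusted p = 1.5e-06, edgeR). Il6, a cytokine that induces acute phase proteins, had 0.137 to 2.76 CPM (median 0.692) against 0.133 to 0.654 CPM (median 0.337) in saline; it was called (log2 fold change 1.40 ± 0.48 (SE), adjusted p = 0.018, edgeR) but not by limma-voom, which gave 1.08 with an adjusted p of 0.104. Il1b, the inflammasome cytokine, was the 1 member not called, at 8.36 to 31.1 CPM (median 12.8) under anti-IL-33 against 8.53 to 22.5 CPM (median 19.1) in saline (log2 fold change -0.02 ± 0.22 (SE), interval -0.47 to 0.43).

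The neutrophil markers themselves did not follow that pattern. Of 11 tested markers 3 rose and 1 fell, with a median log2 fold change of -0.183 under anti-IL-33 beside 0.876 for isotype and 0.767 for no antibody. Over all tested genes 20% were called higher and 18.5% lower. S100a8 and S100a9, calcium-binding proteins abundant in neutrophils, were not called, at 0.05 and -0.18, nor were the receptors Csf3r and Cxcr2, at -0.25 and -0.20. Ltf, the granule protein lactoferrin, rose by 2.05 ± 0.47 (SE) (adjusted p = 0.00056, edgeR), while Mmp9, a gelatinase, fell to 7.23 to 18 CPM (median 13.7) against 16.3 to 39.7 CPM (median 17.9) in saline (log2 fold change -0.76 ± 0.20 (SE), adjusted p = 0.0025, edgeR). Ly6g, a surface marker of mouse neutrophils, rose by 1.58 ± 0.53 (SE) (adjusted p = 0.016, edgeR) at very low levels, with 8 of 15 libraries above all saline. The Ly6g call was lost in number range 2 alone (0.982, adjusted p = 0.0869, edgeR).

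Most tested genes of the acute phase and complement list rose as well. Saa3, serum amyloid A3, made outside the liver in mice, had 3.14 to 269 CPM (median 46.7) under anti-IL-33 against 0.521 to 4.49 CPM (median 1.0) in saline (log2 fold change 5.77 ± 0.89 (SE), adjusted p = 2.6e-06, edgeR). In 13 of 15 libraries Saa3 was above all saline, and the lowest anti-IL-33 library lay inside the saline range. Of 13 tested acute phase and complement genes 10 rose and none fell, with a median of 1.8, beside 1.61 for isotype and 2.11 for no antibody. This list includes complement genes, among them C1qa, C1qb and C1qc, given above, so its count and median are not of acute phase genes alone. Reads of Saa1 and Saa3, members of a family of similar genes, may be assigned unevenly.

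Mucus and goblet cell genes rose in 9 of 14 tested members, and none fell. Itln1, the lectin intelectin 1, had 0.822 to 20.6 CPM (median 9.69) under anti-IL-33 against 0 to 0.841 CPM (median 0) in saline (log2 fold change 5.47 ± 0.73 (SE), adjusted p = 1.6e-07, edgeR), above all saline libraries in 14 of 15. Slc26a4, the anion exchanger pendrin, rose by 2.59 ± 0.39 (SE) (adjusted p = 1.2e-06, edgeR) and Pigr, which carries dimeric IgA across epithelium, by 2.46 ± 0.37 (SE) (adjusted p = 1.2e-06, edgeR), each above all saline in 12 of 15. Muc5b, the constitutive airway mucin, had 129 to 336 CPM (median 271) against 52 to 275 CPM (median 107) in saline and was called (log2 fold change 1.0 ± 0.34 (SE), adjusted p = 0.016, edgeR), but not without saline replicate 2 (0.881, adjusted p = 0.0506). The Muc5b call was also lost in number range 2 alone (0.799, adjusted p = 0.0962, edgeR). Muc5ac, the inducible mucin, had 4.93 to 30.7 CPM (median 17.8) against 1.7 to 30.4 CPM (median 5.82) in saline and was not called (log2 fold change 0.83 ± 0.43 (SE), interval -0.03 to 1.70). It was called without saline replicate 3 (1.38, adjusted p = 0.0111) or 5 (1.13, adjusted p = 0.0471), the saline libraries with the highest Muc5ac, at 30.4 and 22 CPM. Clca1 behaved alike, at 47.6 to 893 CPM (median 183) against 0.673 to 754 CPM (median 24.1) in saline with a log2 fold change of 0.29 ± 0.69 (SE) and an interval of -1.10 to 1.69, and limma-voom called it at 3.02 (adjusted p = 0.00399). The median over the list was 1.03 beside 1.12 for isotype and 1.51 for no antibody.

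The matrix list was closer to saline, with 9 of 21 tested members higher, 2 lower and a median of 0.309, beside 0.744 for isotype and 1.27 for no antibody. Spp1, the secreted phosphoprotein osteopontin, had 161 to 2522 CPM (median 498) under anti-IL-33 against 38.4 to 123 CPM (median 103) in saline (log2 fold change 3.62 ± 0.54 (SE), adjusted p = 1.1e-06, edgeR), without overlap. Tnc, the glycoprotein tenascin C, rose by 1.02 ± 0.23 (SE) (adjusted p = 0.00054, edgeR), and Timp1, an inhibitor of metalloproteinases, by 1.54 ± 0.49 (SE) (adjusted p = 0.012, edgeR). The Timp1 call was lost with limma-voom, at 1.29 and an adjusted p of 0.0593. Mmp14, a membrane-bound collagenase, had 63.1 to 138 CPM (median 79.3) against 41.6 to 57.5 CPM (median 48.9) in saline and rose without overlap (log2 fold change 0.73 ± 0.16 (SE), adjusted p = 0.00031, edgeR). Col1a1, the main fibrillar collagen chain, was not called at 161 to 430.3 CPM (median 195) against 170.3 to 232 CPM (median 201) in saline (log2 fold change 0.16 ± 0.24 (SE), interval -0.32 to 0.65). Postn, the matrix protein periostin, and Fbln5, which organises elastic fibres, fell, at -0.43 and -0.42.

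Every tested plasma cell marker rose, 11 of 11, and the list's mean level was above saline in all 15 libraries. The median log2 fold change was 1.87, beside 2.33 for isotype and 2.54 for no antibody. Jchain, which joins IgA and IgM into polymers, had 1618 to 6950.1 CPM (median 3019) under anti-IL-33 against 24.8 to 562 CPM (median 60.1) in saline (log2 fold change 4.55 ± 0.54 (SE), adjusted p = 2e-08, edgeR). The lowest anti-IL-33 library for Jchain stood above the highest saline library. Mzb1, a chaperone of antibody assembly, rose by 3.71 ± 0.36 (SE) (adjusted p = 3.3e-10, edgeR), and Derl3, an ER degradation factor, by 3.63 ± 0.35 (SE) (adjusted p = 2.8e-10, edgeR). Tnfrsf17, the survival receptor BCMA, had 2.04 to 7.77 CPM (median 4.51) against 0.0869 to 1.09 CPM (median 0.277) in saline (log2 fold change 3.42 ± 0.38 (SE), adjusted p = 4.9e-09, edgeR). B cell markers were closer to saline, with 4 of 10 higher, none lower and a median of 0.417; the inhibitory receptor Cd22 rose by 0.97 ± 0.16 (SE) and the low-affinity IgE receptor Fcer2a by 0.69 ± 0.17 (SE) (adjusted p = 3.9e-06 and 0.00094, edgeR), while Ms4a1 and Pax5 were not called.

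Several genes of germinal centres and lymphoid aggregates rose, at low levels. Il21, the cytokine of follicular helper T cells, had 0.19 to 1.64 CPM (median 0.862) under anti-IL-33 against 0 to 0.269 CPM (median 0.185) in saline (log2 fold change 2.17 ± 0.43 (SE), adjusted p = 7.6e-05, edgeR). Its isotype level was 0.291 ± 0.0663 CPM (SD, n = 4) and its level without antibody 0.671 ± 0.364 CPM (SD, n = 7). Il21 was not called against the isotype, nor with each isotype library left out in turn (adjusted p from 0.0833 to 0.179, edgeR). Ccl19, a chemokine of the T cell zone, rose by 1.56 ± 0.27 (SE) (adjusted p = 1.6e-05, edgeR). Of the 14 tested members 6 rose and 2 fell, among them the chemokine receptor Ccr7, at -0.32.

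Of 14 tested T cell markers 7 rose and 1 fell. Cd4, the coreceptor of helper cells, had 16.7 to 43.7 CPM (median 22.8) under anti-IL-33 against 6.06 to 13.6 CPM (median 10.6) in saline (log2 fold change 1.26 ± 0.17 (SE), adjusted p = 1.6e-07, edgeR), without overlap. Foxp3, the lineage factor of regulatory T cells, had 2.71 to 5.83 CPM (median 4.0) against 0.673 to 2.22 CPM (median 1.46) in saline (log2 fold change 1.47 ± 0.20 (SE), adjusted p = 1.6e-07, edgeR). The checkpoint receptor Ctla4 rose by 1.76 ± 0.26 (SE) (adjusted p = 7.1e-07, edgeR), also without overlap. Cd8b1, a chain of the cytotoxic coreceptor, fell by 0.76 on the log2 scale, and the pan-T genes Cd3d, Cd3e and Cd3g were not called, at 0.16, 0.36 and 0.41. The MHC class II list rose in 9 of 10 tested genes, with a median of 0.728 and all 15 libraries above saline in mean level. H2-Aa, an MHC class II chain, had 679.9 to 1048 CPM (median 775) against 384 to 646 CPM (median 444) in saline (log2 fold change 0.81 ± 0.11 (SE), adjusted p = 1.7e-07, edgeR). Dendritic cell markers were mixed, with 6 of 12 higher and 2 lower; Ly75, an endocytic receptor of cross-presenting cells, rose by 2.36 ± 0.29 (SE) and Flt3, their growth factor receptor, by 1.02 ± 0.13 (SE) (adjusted p = 3.1e-08 and 3.6e-08, edgeR).

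Chaperones and folding enzymes of the endoplasmic reticulum rose in 9 of 10 tested genes, with all 15 anti-IL-33 libraries above all saline libraries in the mean level of the list. The median was 0.704, beside 0.910 for isotype and 1.05 for no antibody. Sdf2l1, a cofactor of the chaperone BiP, had 26.7 to 64.7 CPM (median 42) under anti-IL-33 against 11.4 to 20.7 CPM (median 13.3) in saline (log2 fold change 1.60 ± 0.20 (SE), adjusted p = 3.8e-08, edgeR). Pdia4, a disulphide isomerase, rose by 0.90 ± 0.13 (SE) (adjusted p = 8.1e-07, edgeR) and Herpud1, which acts in ER-associated degradation, by 0.86 ± 0.12 (SE) (adjusted p = 2e-07, edgeR), both without overlap. Hspa5, which encodes BiP, rose by 0.67, Hsp90b1, the chaperone GRP94, by 0.74, Creld2 by 1.28 and the isomerase Pdia6 by 0.30 on the log2 scale. Canx, the lectin chaperone calnexin, was not called, at 0.09.

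The promoters of some of these genes carry a known sequence, the ER stress element. It is made of CCAAT, 9 bases of any kind and CCACG, and the factors NF-Y and ATF6 bind it in mammals. It was searched on both strands in the 300 bases from 250 before to 50 after each gene's start, taken from RefSeq on GRCm38.p6. A match was found for 6 of 10 genes of the list (60%), against 20 of 12267 tested genes with a promoter in the table (0.163%) and 39 of 32851 promoters (0.119%). The 6 include Canx, which was not called, and are themselves among the 20. The element was known for such genes before the search, so its high share in this list is not a test. A match is a description of letters and says nothing of binding in these lungs. Of the 5 called genes with the element in either orientation, Calr, which encodes calreticulin, is not shown; the other 4 promoters are given because these genes rose; all are printed 5′ to 3′ on the strand of the gene, with the element in capitals.
Hspa5, chr2:34771840-34772139, plus strand: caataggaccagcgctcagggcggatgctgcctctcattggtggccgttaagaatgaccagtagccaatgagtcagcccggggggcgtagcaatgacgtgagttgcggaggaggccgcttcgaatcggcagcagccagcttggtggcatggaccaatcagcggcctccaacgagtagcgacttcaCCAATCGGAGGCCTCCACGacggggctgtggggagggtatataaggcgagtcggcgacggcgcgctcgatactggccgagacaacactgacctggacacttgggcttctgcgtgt
Pdia6, chr12:17266339-17266638, plus strand: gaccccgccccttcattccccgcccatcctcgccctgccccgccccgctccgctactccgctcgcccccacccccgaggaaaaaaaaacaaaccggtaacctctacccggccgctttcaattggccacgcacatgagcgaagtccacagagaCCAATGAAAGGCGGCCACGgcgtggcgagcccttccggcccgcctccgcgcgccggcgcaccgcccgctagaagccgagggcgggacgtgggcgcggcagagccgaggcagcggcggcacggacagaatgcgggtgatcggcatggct
Hsp90b1, chr10:86705395-86705694, minus strand: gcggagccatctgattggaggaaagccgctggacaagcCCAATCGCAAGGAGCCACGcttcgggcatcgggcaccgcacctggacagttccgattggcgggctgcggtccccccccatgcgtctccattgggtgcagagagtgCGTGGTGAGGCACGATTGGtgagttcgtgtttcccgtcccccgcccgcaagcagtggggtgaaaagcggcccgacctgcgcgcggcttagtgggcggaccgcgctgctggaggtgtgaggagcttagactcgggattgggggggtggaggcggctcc
Creld2, chr15:88819396-88819695, plus strand: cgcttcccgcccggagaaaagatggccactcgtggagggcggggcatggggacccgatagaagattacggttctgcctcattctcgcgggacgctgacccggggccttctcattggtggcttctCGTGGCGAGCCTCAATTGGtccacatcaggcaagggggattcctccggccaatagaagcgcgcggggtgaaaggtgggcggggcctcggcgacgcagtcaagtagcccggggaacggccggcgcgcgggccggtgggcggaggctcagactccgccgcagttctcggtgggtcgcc
In Hspa5 the element starts 65 bases before the gene's start and reads in the gene's direction, and in Creld2 it starts 126 bases before and lies on the other strand. Hsp90b1 holds 2 elements, 1 on each strand. The sequence made of TTC, 4 bases of any kind and GAA, of the type that STAT6 binds, reads the same on both strands and was found in 3 of 9 promoters of alternatively activated macrophage genes (33.3%) and 2 of 13 type 2 promoters (15.4%), against 808 of 12267 tested genes (6.59%). Its matches were in Retnla, Pdcd1lg2 and Itgax, and in Il4 and Ccl17; of these 5 only Pdcd1lg2 and Itgax were called. These counts of promoters are too small to compare the lists.

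Mast cell proteases of the mucosal type were among the largest rises. Mcpt2 had 0.212 to 16 CPM (median 4.49) under anti-IL-33 against 0 to 0.135 CPM (median 0) in saline, and Mcpt1 had 0.635 to 16.6 CPM (median 5.42) against 0 to 0.133 CPM (median 0.0842), with no overlap for either gene. Their log2 fold changes were 6.50 ± 0.93 (SE) and 6.23 ± 0.85 (SE) (adjusted p = 6.3e-07 and 3e-07, edgeR), and since they are close copies of each other their reads may be split unevenly. Cpa3, the mast cell carboxypeptidase, and the tryptase Tpsb2 also rose, by 1.85 and 2.77. Gata2, a transcription factor of mast cells and of endothelium, fell to 22.4 to 75.1 CPM (median 43.3) against 86.6 to 119 CPM (median 102) in saline (log2 fold change -1.05 ± 0.17 (SE), adjusted p = 6.6e-06, edgeR), and the stem cell factor receptor Kit fell by 0.70. Over the list 5 of 12 rose and 2 fell, with a median of 0.505, beside -0.585 for isotype and 0.670 for no antibody. Among eosinophil markers, Prg2, the granule major basic protein, had 3.93 to 10.1 CPM (median 7.38) against 0.269 to 0.647 CPM (median 0.462) in saline (log2 fold change 3.89 ± 0.34 (SE), adjusted p = 2.9e-11, edgeR). Ear6, an eosinophil ribonuclease of a family of near-identical genes, rose by 5.48 ± 0.94 (SE) (adjusted p = 1.1e-05, edgeR), whereas Ccr3, Siglecf and Il5ra were not called, at -0.14, 0.17 and 0.19. Of 7 tested eosinophil markers 3 rose and 1 fell, with a median of 0.194, beside 0.998 for isotype and 0.457 for no antibody.

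Cytotoxic lymphocyte genes fell. Of 12 tested NK and cytotoxic markers 10 fell and none rose, with a median of -1.39, beside -1.13 for isotype and -2.19 for no antibody, and 14 of 15 anti-IL-33 libraries lay below the saline range in mean level. Gzma, the protease granzyme A, had 4.6 to 23 CPM (median 8.77) under anti-IL-33 against 24.8 to 40.6 CPM (median 28.3) in saline (log2 fold change -1.75 ± 0.21 (SE), adjusted p = 2.4e-08, edgeR). Ncr1, the NK receptor NKp46, had 1.62 to 7.52 CPM (median 3.14) against 7.57 to 13.4 CPM (median 8.67) in saline (log2 fold change -1.52 ± 0.23 (SE), adjusted p = 1.9e-06, edgeR). In both genes the highest anti-IL-33 library was below the lowest saline library. Klrb1c, the NK1.1 antigen, fell by 1.43 and S1pr5, a receptor for exit of NK cells from tissue, by 1.76 on the log2 scale (adjusted p = 8.8e-08 and 3.8e-07, edgeR). Eomes, a transcription factor of NK and cytotoxic T cells, and the death ligand Fasl were not called, at 0.24 and -0.37.

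Interferon targets did not move as a block. Cxcl9, a T cell chemokine induced by interferon gamma, had 0.925 to 46.2 CPM (median 12.7) under anti-IL-33 against 0.404 to 1.22 CPM (median 0.8) in saline (log2 fold change 4.04 ± 0.59 (SE), adjusted p = 1e-06, edgeR), above all saline in 14 of 15 libraries. Cxcl10, a related chemokine, rose by 1.58 ± 0.34 (SE) (adjusted p = 0.00023, edgeR). Mean Cxcl9 was 17.8 ± 14.4 CPM under anti-IL-33 (SD, n = 15), 6.12 ± 4.24 CPM with the isotype (SD, n = 4), 3.98 ± 1.72 CPM without antibody (SD, n = 7) and 0.789 ± 0.346 CPM in saline (SD, n = 7). Against the isotype Cxcl9 was not called. It was also not called without isotype replicate 1, 2 or 3, with adjusted p up to 0.409 (edgeR). Only leaving out isotype replicate 4 gave a call (adjusted p = 0.029, edgeR). Gbp2, a guanylate-binding protein, fell by 0.50 on the log2 scale at an adjusted p of 0.039 (edgeR), a call lost when any of 4 saline or 7 anti-IL-33 libraries was left out, and in number range 1 alone its value was 0.157. Ifng was not called, at 1.15 ± 0.48 (SE) (adjusted p = 0.052, edgeR), and DESeq2 called it at 1.20 (adjusted p = 0.0429). With edgeR it was called with no range term (1.25, adjusted p = 0.0306). It was also called without 2 libraries of other groups that stand apart (1.17, adjusted p = 0.0305, edgeR). The same held when saline replicate 7, or anti-IL-33 replicate 6, 8, 11, 13 or 14, was left out. Of 14 type I interferon genes 5 fell, among them Ifit2 (-0.88 ± 0.20 (SE), adjusted p = 0.00055, edgeR) and Ifit3 (-0.75 ± 0.16 (SE), adjusted p = 0.00024, edgeR), both induced by viral RNA sensing. Oas1a, which senses double-stranded RNA, rose without overlap, at 14.1 to 24.6 CPM (median 18.1) against 3.79 to 10.1 CPM (median 7.2) in saline (log2 fold change 1.28 ± 0.17 (SE), adjusted p = 1.2e-07, edgeR).

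Most tested markers of type I alveolar cells, club cells, endothelium and alveolar fibroblasts fell. Of 11 tested type I alveolar markers 10 fell and none rose, with a median of -0.792, beside -1.25 for isotype and -1.42 for no antibody. Hopx, a homeodomain protein of type I cells, had 156 to 433 CPM (median 266) under anti-IL-33 against 486 to 666 CPM (median 613) in saline (log2 fold change -1.18 ± 0.17 (SE), adjusted p = 4.1e-07, edgeR). Ager, the receptor RAGE, had 625 to 1182 CPM (median 871) against 1188 to 1462 CPM (median 1425) in saline (log2 fold change -0.71 ± 0.17 (SE), adjusted p = 0.00061, edgeR). Vegfa, the endothelial growth factor, fell by 0.87 and the membrane protein Emp2 by 0.77 on the log2 scale (adjusted p = 2.3e-06 and 2.7e-06, edgeR). All 15 anti-IL-33 libraries were below all saline libraries for each of these 4 genes. Type II markers moved the other way, with 7 of 11 higher, none lower and a median of 0.424. Sftpd, surfactant protein D, rose by 1.17 ± 0.19 (SE), the phosphate transporter Slc34a2 by 0.67 ± 0.11 (SE) and Sftpa1 by 0.66 ± 0.12 (SE) (adjusted p = 5.7e-06, 8.2e-06 and 3.6e-05, edgeR), while Sftpc and Sftpb were not called, at 0.27 and 0.08.

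All 9 club cell markers fell, with a median of -0.921, beside -1.66 for isotype and -1.60 for no antibody. Cyp2f2, a cytochrome P450 of mouse club cells, had 329 to 1432 CPM (median 856) under anti-IL-33 against 1575 to 2706 CPM (median 1959) in saline (log2 fold change -1.38 ± 0.23 (SE), adjusted p = 9.2e-06, edgeR). Gsta3, a glutathione transferase, had 19.1 to 77 CPM (median 51.5) against 90.0 to 125 CPM (median 108) in saline (log2 fold change -1.20 ± 0.21 (SE), adjusted p = 2e-05, edgeR), and Cckar, the cholecystokinin A receptor, fell by 0.92 (adjusted p = 1.2e-05, edgeR). None of these 3 overlapped between the groups. Of 12 ciliated cell markers 3 fell, a share near the 18.5% of all tested genes called lower, with a median of -0.311, beside -1.02 for isotype and -1.14 for no antibody; Ccdc39, an axoneme assembly protein, had 8.67 to 36.1 CPM (median 20.2) against 22 to 43.9 CPM (median 28.2) in saline (log2 fold change -0.85 ± 0.25 (SE), adjusted p = 0.0057, edgeR). Xenobiotic-metabolising enzymes fell in 8 of 11, with a median of -1.0. Cyp4b1, a P450 of club and type II cells, had 84 to 392 CPM (median 244) against 521 to 683 CPM (median 594) in saline (log2 fold change -1.40 ± 0.23 (SE), adjusted p = 4.6e-06, edgeR), and the flavin monooxygenase Fmo1 fell by 1.25 (adjusted p = 2.1e-05, edgeR). Basal and squamous markers rose in 7 of 7, with a median of 2.73 that was 1.11 without replicates 7 and 12. Krt5 had a log2 fold change of 8.23 ± 2.23 (SE) with all libraries and 4.88 without these (adjusted p = 0.0252, edgeR), and was above all saline in 13 of 15.

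Endothelial markers fell in 12 of 13, with a median of -0.844, beside -0.920 for isotype and -0.898 for no antibody. Flt1, the VEGF receptor 1, had 76.3 to 155 CPM (median 108) under anti-IL-33 against 179.8 to 250.4 CPM (median 228) in saline (log2 fold change -0.97 ± 0.13 (SE), adjusted p = 2e-07, edgeR). Tek, the angiopoietin receptor Tie2, had 80.5 to 299 CPM (median 169) against 343 to 455 CPM (median 434) in saline (log2 fold change -1.32 ± 0.21 (SE), adjusted p = 3.9e-06, edgeR). Both were below all saline libraries in all 15, and the junction protein Pecam1 in 14 (-0.79 ± 0.11 (SE), adjusted p = 3.1e-07, edgeR). Alveolar fibroblast markers fell in 9 of 10, with a median of -0.822, beside -1.5 for isotype and -1.76 for no antibody. Fgfr4, a fibroblast growth factor receptor, had 7.52 to 29.1 CPM (median 16) against 37.4 to 53.4 CPM (median 42) in saline (log2 fold change -1.29 ± 0.20 (SE), adjusted p = 2.9e-06, edgeR). The lung mesenchyme ligand Wnt2 fell by 1.20 and Fgf10 by 0.78 on the log2 scale (adjusted p = 6.2e-07 and 9.4e-06, edgeR), and Gdf10 was the 1 marker that rose, by 0.61. Smooth muscle contractile genes were mostly not called, with 1 of 8 lower. Counts are relative to the library total, so these falls stand beside the rises of immune genes in the same libraries, and their part in them was not tested.

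Genes of proliferation and lipid synthesis were higher. Of 17 cell cycle genes 16 rose and none fell, with a median of 0.970, beside 1.09 for isotype and 1.40 for no antibody. Aurkb, a mitotic kinase, had 2.76 to 6.75 CPM (median 4.81) under anti-IL-33 against 1.23 to 2.86 CPM (median 1.91) in saline (log2 fold change 1.25 ± 0.17 (SE), adjusted p = 3.1e-07, edgeR), above all saline in 14 of 15. Rrm2, a subunit of ribonucleotide reductase, rose by 1.06 ± 0.16 (SE) (adjusted p = 2.2e-06, edgeR). Scd1, a desaturase of fatty acids, had 4302 to 10955 CPM (median 8353) against 1662 to 3750.1 CPM (median 1914) in saline without overlap (log2 fold change 1.73 ± 0.19 (SE), adjusted p = 4.1e-09, edgeR). Fasn, fatty acid synthase, rose by 1.40 ± 0.25 (SE) (adjusted p = 2.3e-05, edgeR), while the sterol genes Idi1, Insig1, Srebf2 and Hmgcs1 were not called. Among immediate early genes Dusp1, a phosphatase of MAP kinases, fell by 1.03 and Jun by 0.59 on the log2 scale (adjusted p = 7.7e-06 and 1.2e-06, edgeR), and Atf3, a stress-induced factor, rose by 1.18 ± 0.26 (SE) (adjusted p = 0.00034, edgeR). Markers of red blood cells and fat were not called in any of their 7 and 5 tested members, although fat markers were high in anti-IL-33 replicate 7, where Adipoq stood at 155 CPM.

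**Figure D3:**
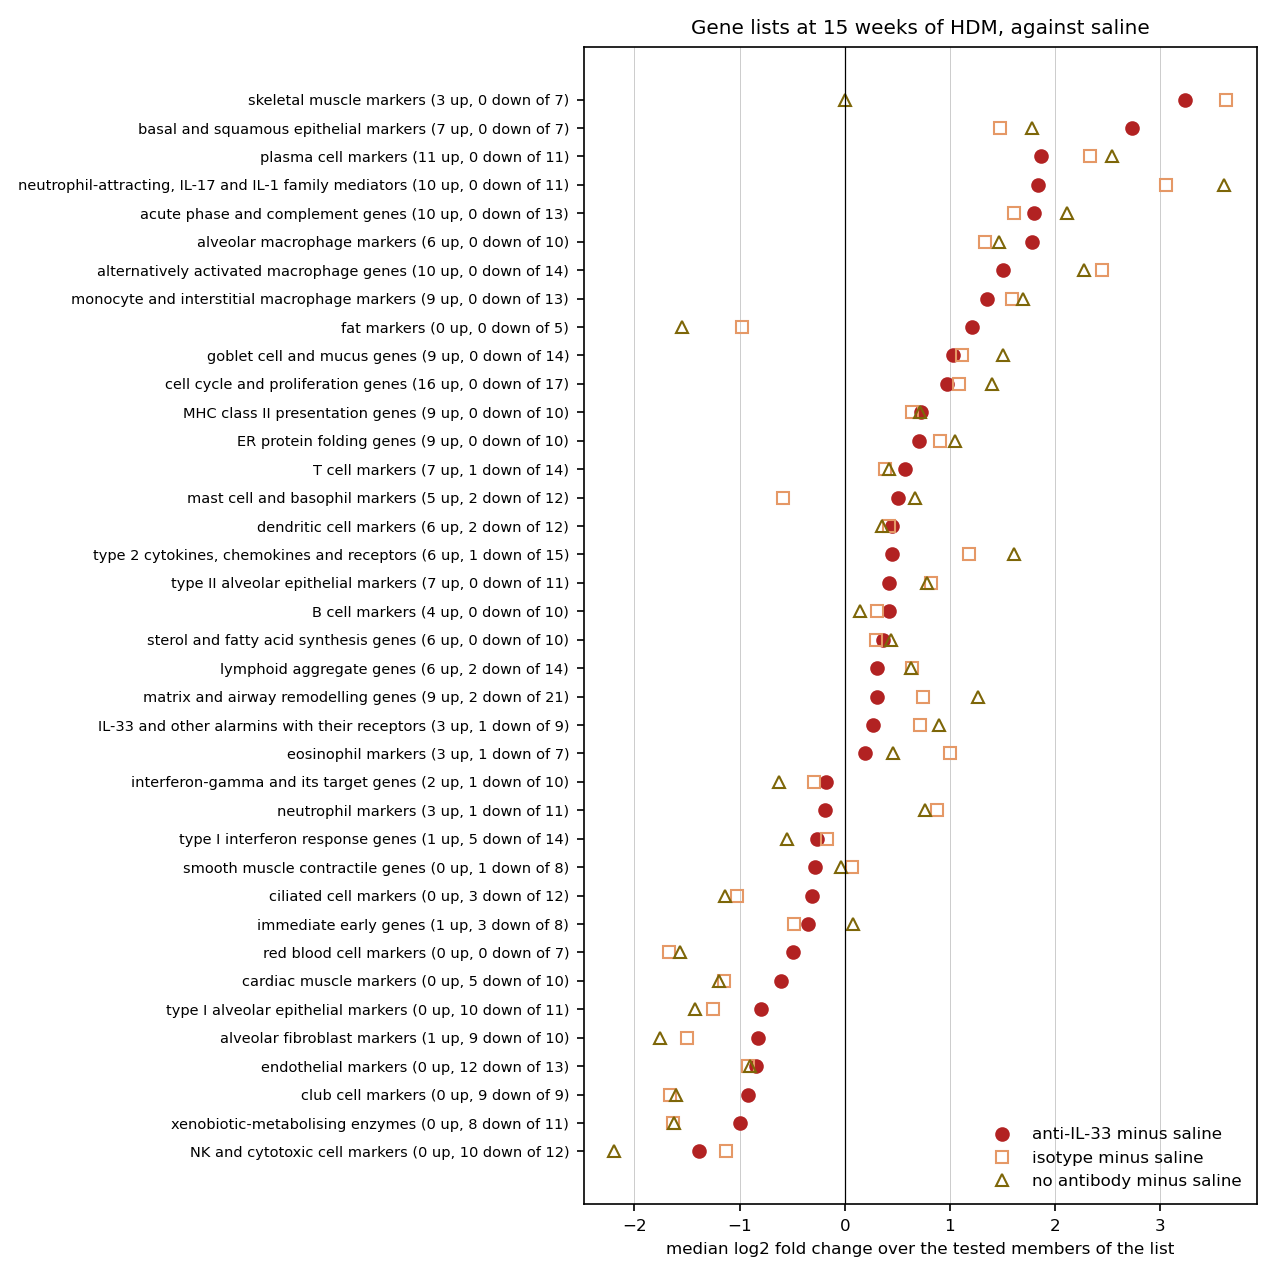
For each of 38 gene lists the median log2 fold change over its tested members is given on the x axis for anti-IL-33 (filled circles), isotype (squares) and no antibody (triangles), each minus the same 7 saline libraries. Labels give how many members were called higher or lower under anti-IL-33; plasma cell, macrophage and acute phase lists lie to the right of 0, and NK, type I alveolar, club, endothelial and alveolar fibroblast lists to the left.

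The named genes with the largest changes, by a rule that sets a minimum level and leaves out predicted genes, were of several kinds. Clca3b, of the Clca family of similar genes, had 0 counts in all 7 saline libraries and 6 to 124 counts in each of 15 anti-IL-33 libraries. Against a floor of 3 counts over the saline group it was at least 154-fold higher. Awat1, an enzyme of wax ester synthesis, had 2.73 to 121 CPM (median 36.9) under anti-IL-33 against 0 to 1.09 CPM (median 0) in saline, without overlap (log2 fold change 7.62 ± 0.82 (SE), adjusted p = 3.6e-09, edgeR). Cd200r2, a CD200 receptor relative, had 0.547 to 29.9 CPM (median 6.73) against 0 to 0.168 CPM (median 0.0771) in saline (log2 fold change 6.85 ± 0.88 (SE), adjusted p = 9.3e-08, edgeR). Erv3, an endogenous retroviral gene, was at 0 in saline and above 0 in 12 of 15 anti-IL-33 libraries, at least 69.9-fold higher on the same floor, but at least 43-fold without replicate 12, its highest library at 18.4 CPM. Its median under anti-IL-33 was 0.529 CPM. Mcpt1 and Mcpt2, above, and Myh8, Krt5, Myh1 and Serpinb12 were the other 6 of the 10 largest rises, and the levels of the last 4 were highest in replicates 7 and 12. On the side of falls, Asgr1, a subunit of the asialoglycoprotein receptor, had 0 to 1.5 CPM (median 0.449) under anti-IL-33 against 2.19 to 6.08 CPM (median 4.7) in saline (log2 fold change -3.06 ± 0.37 (SE), adjusted p = 2.8e-08, edgeR). Sox11, a developmental transcription factor, had 1.35 to 33.6 CPM (median 9.78) against 48.1 to 62.1 CPM (median 56.6) in saline (log2 fold change -2.19 ± 0.40 (SE), adjusted p = 2.9e-05, edgeR), and neither gene overlapped. Pon1, the enzyme paraoxonase, fell by 1.99 and Lrtm2 by 1.80 on the log2 scale (adjusted p = 8.1e-08 and 3.3e-09, edgeR). Cyp26b1, which degrades retinoic acid, had 3.27 to 86 CPM (median 7.9) under anti-IL-33 and 8.25 to 281 CPM (median 51.7) in saline, so that its fall of 2.39 (adjusted p = 0.0004, edgeR) came with overlapping groups.

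The 15 anti-IL-33 libraries differed among themselves, with Lcn2 from 215 to 2687 CPM. Across these libraries Lcn2 was set against 6 other genes on the scale of log2(CPM + 0.25), with p from 100000 permutations and Benjamini-Hochberg adjustment over the 6. Arg1 was higher where Lcn2 was higher (Pearson r = 0.85, permutation p = 8e-05, adjusted 0.00024; Spearman rho = 0.90, permutation p = 2e-05, adjusted 0.00012). Cyp2f2 was lower where Lcn2 was higher (r = -0.88, permutation p = 4e-05, adjusted 0.00024; rho = -0.84, permutation p = 0.00022, adjusted 0.00044). Hopx gave r = -0.81 (permutation p = 0.00034, adjusted 0.00068) and rho = -0.77 (permutation p = 0.0011, adjusted 0.0016). H2-Aa gave r = -0.81 (permutation p = 0.00057, adjusted 0.00085) and rho = -0.87 (permutation p = 5e-05, adjusted 0.00015). Weaker relations were seen for Jchain (r = -0.59, permutation p = 0.02, adjusted 0.023; rho = -0.55, permutation p = 0.036, adjusted 0.044) and Flt1 (r = -0.54, permutation p = 0.04, adjusted 0.04; rho = -0.53, permutation p = 0.045, adjusted 0.045).

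Without the 2 libraries farthest from the median of Lcn2, r was 0.80 for Arg1, -0.83 for Cyp2f2, -0.76 for Hopx, -0.76 for H2-Aa, -0.77 for Jchain and -0.41 for Flt1. Without replicates 7 and 12, which held RNA of other tissues, r was 0.86, -0.89, -0.86, -0.77, -0.49 and -0.71 in the same order. In number range 1 (8 libraries) r was 0.87 for Arg1, -0.93 for Cyp2f2, -0.83 for Hopx, -0.80 for H2-Aa, -0.56 for Jchain and -0.56 for Flt1. In range 2 (7 libraries) it was 0.96, -0.95, -0.93, -0.86, -0.57 and -0.76 in the same order. The 6 genes were picked after earlier results were known, and the libraries differ in depth, whose part in the relations was not tested.

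**Figure D4:**
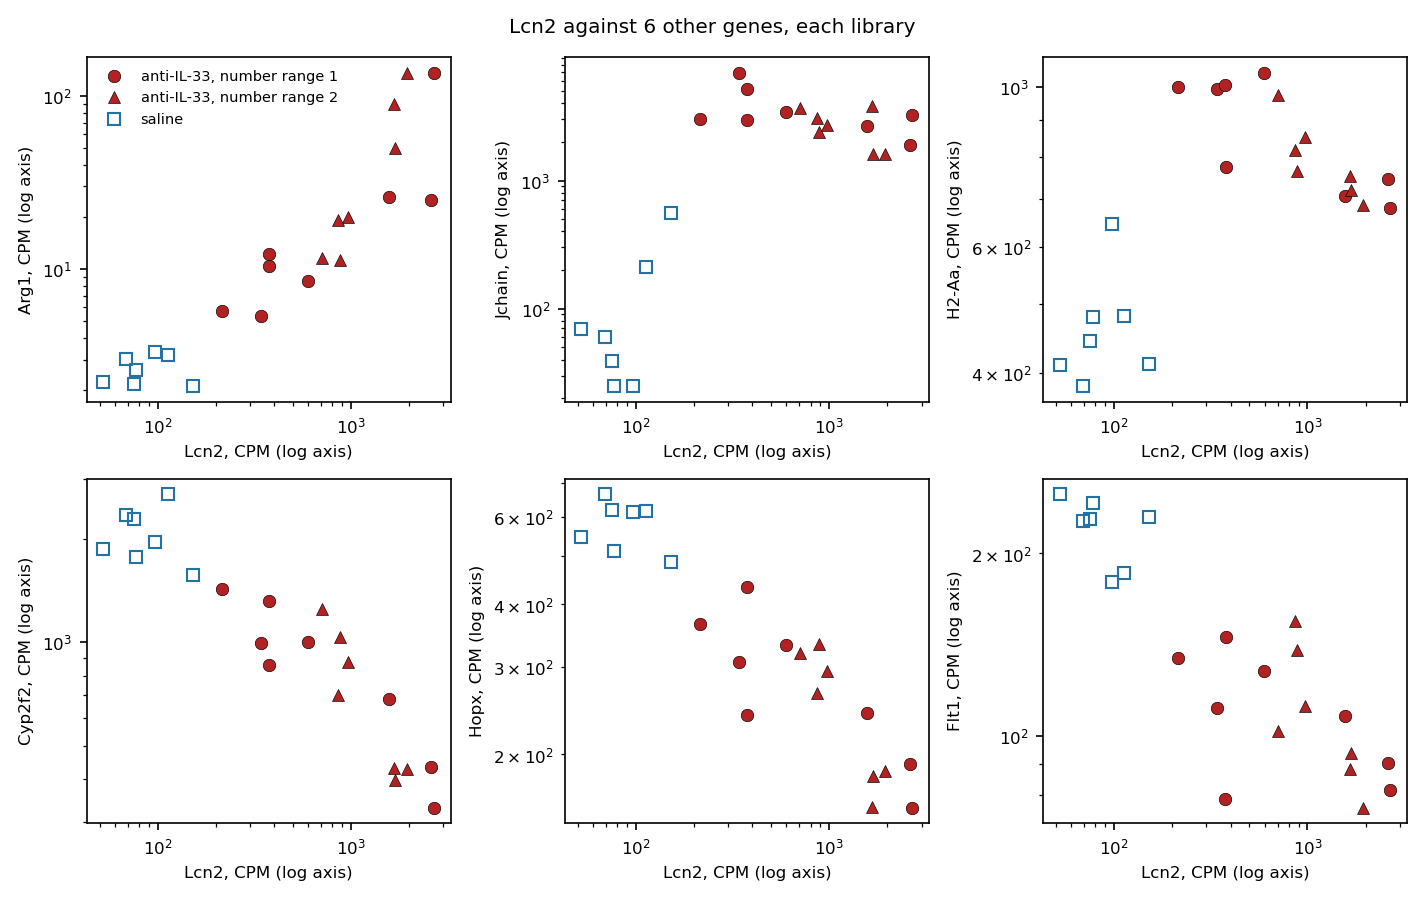
Each panel sets Lcn2 on the x axis against 1 other gene on the y axis, both in CPM on log axes, for 15 anti-IL-33 libraries (filled, circles for number range 1 and triangles for range 2) and 7 saline libraries (open squares). Arg1 climbs with Lcn2 (r = 0.85) while Cyp2f2, Hopx and H2-Aa decline (r = -0.88, -0.81 and -0.81), and Lcn2 starts at 215 CPM, above the saline maximum of 152 CPM.

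The change against saline was also taken within each number range. In range 1, 8 anti-IL-33 and 2 saline libraries gave 1644 called genes (10.5%), 939 higher (6.02%) and 705 lower (4.52%); in range 2, 7 and 5 libraries gave 4862 (31.2%), 2599 higher (16.7%) and 2263 lower (14.5%). These counts come from the fit over all 43 libraries, whose spread they share. Fitted alone, range 1 gave 409 higher and 169 lower genes and range 2 gave 3802 and 3376. The difference between the ranges was itself called for 0 genes by edgeR, with 403 at an unadjusted p under 0.05, for 20 by DESeq2, and for 4 by edgeR with only these groups in the fit. The genes with the smallest p for that difference were Slfn8, of the Schlafen family, at 1.37 in range 1 and -0.26 in range 2, Gbp5, a guanylate-binding protein, at 0.79 and -0.86, and Chst4, a sulphotransferase, at -3.74 and -0.97. Il13 stood at -0.68 in range 1 and 2.49 in range 2, where it was called (adjusted p = 0.017, edgeR), and Il1rl1 at -0.32 and 0.68 (adjusted p in range 2 = 0.026, edgeR). For neither gene was the difference between ranges called (adjusted p = 1 and 1, edgeR). Some large changes had like values in both ranges, with Ccl8 at 4.38 and 4.34, Saa3 at 6.14 and 5.98 and Asgr1 at -3.18 and -3.00, whereas others had values further apart, with Jchain at 6.85 and 3.86, Mcpt2 at 4.43 and 7.83 and Ear6 at 3.31 and 6.25. Mcpt2 and Ear6 had 0 to 3 counts in each saline library.

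**Figure D5:**
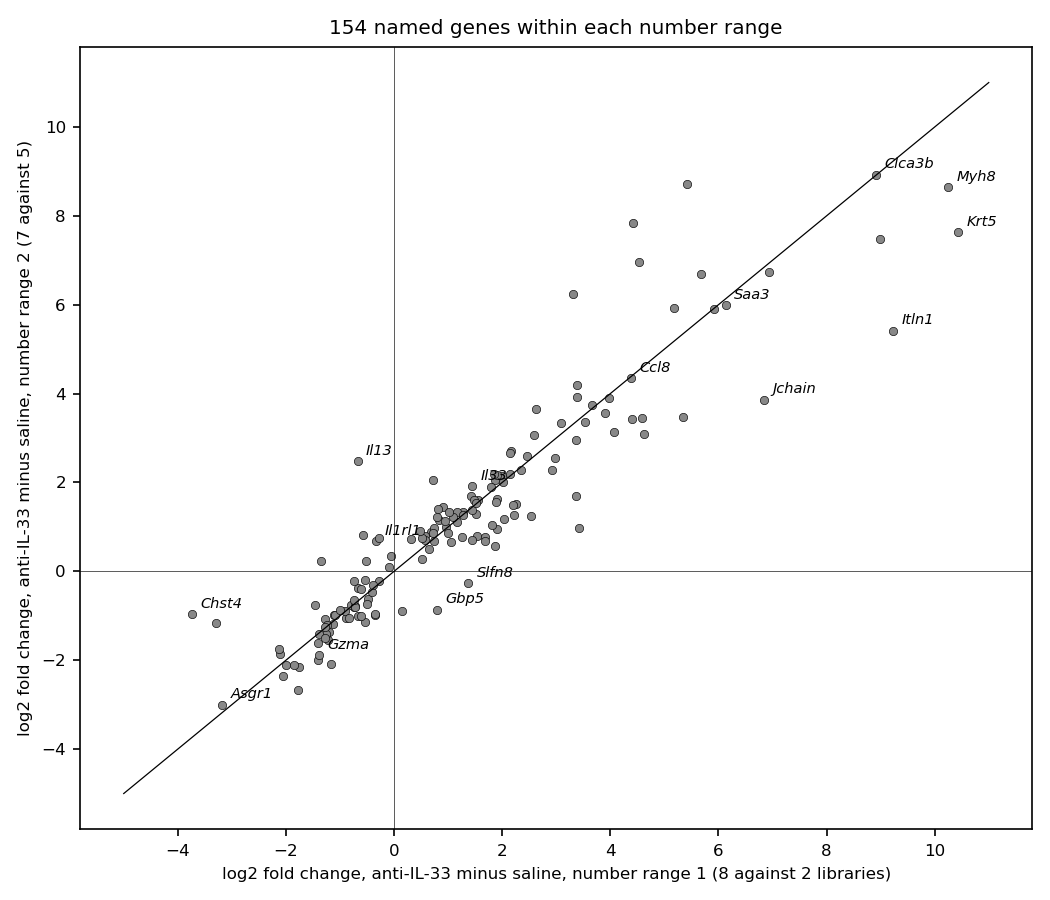
Each point is 1 of 154 named genes, with its log2 fold change, anti-IL-33 minus saline, in number range 1 on the x axis and in range 2 on the y axis; the diagonal marks equal values. The sign is the same in both ranges for 143 genes and opposite for 11, among them Il13 (-0.68 and 2.49) and Slfn8 (1.37 and -0.26), and no gene's difference between ranges was called by edgeR in the fit over all 43 libraries.

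Set against the isotype libraries, 1047 genes (6.71%) differed, 558 higher under anti-IL-33 (3.58%) and 489 lower (3.14%). That count depends on which libraries enter the fit. With only the groups compared it was 1984 higher and 2169 lower, and without 2 libraries of other groups that stand apart 2308 and 2331. Without isotype replicate 1 it was 7 higher and 87 lower, without replicate 2 540 and 395, without replicate 3 10 and 48, and without replicate 4 302 and 381. Ccl11, whose residual rise over saline is given above, was lower than with the isotype by -2.15 ± 0.37 (SE) (adjusted p = 0.00063, edgeR) and kept the call without each isotype library. Il13 (-2.56), Il5 (-2.68), Il1rl1 (-1.25), Il1b (-1.18), Arg1 (-2.93), Mmp12 (-2.51), Timp1 (-2.29) and Atf3 (-1.27) were also lower than with the isotype on the log2 scale, and lost the call when isotype replicate 3 was left out, at adjusted p from 0.0707 to 0.125 (edgeR). Il33, Il6, Retnla, Spp1 and Ccl24 lost it without replicate 1 or 3, and Saa3 without any of the 4. Genes higher than with the isotype included 6 of 12 ciliated, 4 of 9 club and 4 of 10 alveolar fibroblast markers, and none in these lists was lower. These list counts were not repeated with isotype libraries left out. Over all genes only 7 were higher without isotype replicate 1 and 10 without replicate 3, so these calls cannot all have been kept. Pon1 was higher by 1.40 (adjusted p = 0.029, edgeR), a call lost without isotype replicate 1, 3 or 4. Of the genes far from saline, Ccl8 (-0.53), Chil3 (-0.59), Lcn2 (-0.89), Jchain (-0.49), Prg2 (-0.38), Gzma (-0.44) and Hopx (0.48) were not called against the isotype. Their adjusted p ran from 0.12 to 0.52 with all 4 isotype libraries, which does not show that the levels are alike.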

How the data were processed

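Lung RNA was sequenced in 43 libraries made from total RNA with a stranded mRNA kit, per the labels' protocols, and the genome build was GRCm38, per the submitters' processing notes. The sources used here do not name the aligner, the annotation, the counting tool, its strand setting or any filter. The deposited values are raw read counts for each Entrez gene, not normalized by the authors, and IDs unmatched in the RefSeq annotation hold 2.62% of counts and stay in the totals. Library totals run from 5126491 to 12599467 for anti-IL-33 and 7090950 to 12414078 for saline, and genes under about 1 CPM rest on few counts. Libraries are grouped by the titles and agents in the labels. No replicate pair differed by less than sampling noise.

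With edgeR 4.0.16 in R 4.3.3, TMM factors were set, genes of low count removed by filterByExpr (15598 kept) and 1 robust quasi-likelihood fit made over all 43 libraries, with a term for each group and for the number range of the sample title. Log2 fold changes are contrasts of that fit, calls are at a Benjamini-Hochberg adjusted p under 0.05, and CPM use TMM-scaled totals. A second fit with a mean per group and range tested the difference between ranges. The analysis was tested on simulated data. Named genes are the 10 largest rises and falls with a mean of at least 2 CPM, predicted, clone-named and antigen receptor segment genes left out, the 3 members of each of 38 lists with the smallest p, a fixed set of names, and the 3 genes with the smallest p between ranges; other list members are given by their list. The comparison, the lists, the named genes and the genes set against Lcn2 were chosen with earlier results of these data known. Alternatives were other size factors, filters, DESeq2 1.42.0, limma-voom (limma 3.58.1), no range term, each range alone, fewer groups, a fold threshold of 1.5, a correction for GC content and gene length, and each library of the compared groups left out. Leaving out anti-IL-33 replicates 7 and 12 together was added after the data were seen. Figures and permutations used Python 3.11.15, NumPy 2.4.6, pandas 2.3.3, SciPy 1.17.1 and matplotlib 3.10.9. Reads of near-identical or overlapping genes may be assigned unevenly. Of listed genes, Il9, Il25, Retnlb, Gcnt3, Il17f, Csf3, Saa2, Epx, Camp, Cxcl11, Krt17, Krt6a, Myh4 and Ucp1 had too few counts, and Ahsp is not among the IDs used here. A few listed genes are not reported here.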

Additional observations from a re-analysis of the deposited data

Results flagged for a closer look

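In the isotype and saline groups, the highest or lowest library was set against its group by the gap to its nearest neighbour as a share of the group's range, on log2(CPM + 0.25), with Dixon's limits of 0.829 for the 4 isotype and 0.568 for the 7 saline libraries. Of 314 group values tested 18 passed, where chance passes about 1 in 20. The 15 anti-IL-33 libraries were not tested this way.

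Isotype replicate 1 was highest for C1qa (share 0.933), Herpud1 (0.829), plasma cell markers (0.925) and skeletal muscle markers (0.896), the last at a mean log2 CPM of 3.43 against at most 0.322 in the other 3 isotype libraries. Isotype replicate 3 was lowest for Gata2 (0.892) and ciliated cell markers (0.844). Isotype replicate 4, the 1 isotype library of number range 2, was highest for Lcn2 (0.879) and lowest for Ccl8 (0.914), at 39.2 CPM against 56.8 to 58.8 CPM in the other 3.

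Saline replicate 3 was lowest for Adgre1 (0.59), Pecam1 (0.584), Tek (0.575) and alveolar macrophage markers (0.572), and highest for ciliated cell markers (0.575), at a mean log2 CPM of 5.89 against 5.08 to 5.43 in the other 6. Saline replicate 1 was lowest for Il1b (0.57), at 8.53 CPM against 14.9 to 22.5 CPM, and Lrtm2 (0.611), and highest for H2-Aa (0.571). Saline replicate 5 was highest for Awat1 (0.746), at 1.09 CPM against at most 0.133 CPM, and lowest for Asgr1 (0.576). For Pecam1, Tek, Asgr1, Awat1, Lrtm2 and H2-Aa that saline library lay on the side of the anti-IL-33 libraries, and for Adgre1 on the other side.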

How the results depend on the processing

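No paired analysis was possible because the labels give no replicate number or animal shared between the groups. Against saline, the counts of higher and lower genes were 3084 and 2914 with DESeq2's size factors, 3243 and 2663 without a filter, 3140 and 2810 with at least 1 CPM in 7 libraries, 3208 and 3081 with DESeq2, 3024 and 2957 with limma-voom, and 3176 and 2891 with no range term. They were 4194 and 4040 with only the 2 groups, 4083 and 3819 without 2 libraries of other groups that stand apart, 3802 and 3376 in range 2 alone, and 3091 and 4093 after a correction for GC content and gene length. They fell outside 1.5 times the count in range 1 alone, at 409 and 169, and against a fold of 1.5, at 825 and 260. Leaving out 1 anti-IL-33 library gave 2907 to 3210 higher and 2556 to 2983 lower genes, and leaving out 1 saline library 2775 to 2989 and 2515 to 2731.

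Against the isotype, 315 genes were higher without a filter and 1026 with DESeq2; with only the groups compared 1984 were higher and 2169 lower, and without 2 libraries that stand apart 2308 and 2331. Leaving out 1 isotype library gave 7 to 540 higher and 48 to 395 lower. The difference between ranges was called for 20 genes by DESeq2 and 4 with only the 2 groups, and for 0 to 0 genes without either saline library of range 1.

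Of 154 named genes, 133 were called in the main fit, and 52 were called both there and in range 1 alone, which holds 2 saline libraries. In range 1 alone 7 named genes had the opposite sign, of which 1, Gbp2 at 0.157, had been called in the main fit. Without anti-IL-33 replicates 7 and 12 the median of the skeletal muscle list turned to -0.144 and that of the basal and squamous list was 1.11, while 36 of 38 list medians kept close to their value. Muc5ac and Clca1 were called by limma-voom, at 1.42 and 3.02. The causes were not tested. Depth limits Il4, Il5, Il13 and other genes under 1 CPM, whose intervals are wide; range 1 holds 2 saline libraries, and the saline group has no time label.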
